A study of Mus musculus with 6 samples.

Results

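The sort-gate surface markers are a set of 9 genes, taken by gene symbol from the 15553 genes of the deposited table. All 9 were present. The set is Slamf1, Cd48, Ly6a, Ly6e, Cd34, Procr, Esam, Cd27 and Adgrg1. Products of most of them are used to isolate mouse hematopoietic stem cells, and Ly6e encodes a protein related to that of Ly6a. RNA sequencing compared 3 libraries from Yy1 knockout mice with 3 from wild-type mice. Knockout mice were homozygous for a floxed Yy1 allele and carried Mx1-Cre, a Cre recombinase under an interferon-inducible promoter (Yy1f/f;Mx1-Cre), and the wild-type mice carried Mx1-Cre as well. All were C57BL/6 and 6 to 8 weeks old. Sorted marrow cells lacked lineage antigens and CD48 and bore Sca1 and c-Kit. The protocol names gates with and without CD150, and the source labels name the gate with CD150 alone. What induced the Cre, how far Yy1 was deleted, and whether each library came from its own mouse are not given in the sources used here, so p-values measure the spread between these libraries, which may be technical.

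Hematopoietic stem cells are rare marrow cells that renew themselves and give rise to all blood lineages. They are isolated by combinations of surface antigens. CD150 on a cell that lacks CD48 marks the stem cells with the longest repopulating capacity, CD48 appears as cells become progenitors, and Sca-1 with c-Kit defines the wider stem and progenitor pool within which these SLAM receptors are read. YY1 is a DNA-binding zinc-finger protein that activates some genes and represses others.

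At Yy1 itself, the libraries labelled Yy1 knockout stood at 36.2, 16.6 and 28.5 RPKM (reads scaled by gene length and library size), against 31.6, 42.3 and 52.1 RPKM in wild type. Yy1 in the library labelled knockout replicate 1 lay inside the wild-type range, so its Yy1 level does not tell that library from wild type. A level over the whole gene cannot show whether the floxed part was deleted. The log2 fold change of Yy1 was -0.66 (SE 0.32), with an adjusted limma p of 0.680. The word "knockout" below means the libraries so labelled. Reads recovered from the listed genes were estimated at 15102983 to 21757039 per library. These totals were 1.11 to 1.17 times the library sizes that the RPKM scaling gave, so they are not exact depths. Wild type replicate 3 stood apart from the other libraries on the first principal component (34.6% of the variance), and 1991 genes were listed at 0 in it, against 373 to 1099 in the others. The cells are bulk samples, so fewer cells of a type and less RNA per cell cannot be told apart.

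Of the 8 marker genes that passed the filter on low values (at least 1 RPKM in at least 3 libraries), 7 were lower on average in knockout than in wild type and Slamf1 was higher. None passed the test: in limma on log2(RPKM + 0.5), 0 of the 8 had a Benjamini-Hochberg adjusted p under 0.05, as was so for 0 of all 13179 genes tested (0%). At an unadjusted limma p under 0.05 there were 1027 genes (7.79%), and limma-voom on recovered reads called 8 of 13114 (0.061%), none of them a marker gene. The median log2 fold change of the 8 was -0.34, beside 0.02 over all genes tested, and 7 of 8 lay below 0, beside 48.1% of all genes. Cd27 and Adgrg1 were the 2 whose knockout libraries all lay below all wild-type libraries, which was so for 6.87% of all genes tested. Both also had an unadjusted limma p under 0.05 in that direction, as had 3.06% of all genes; no marker gene had one in the higher direction, as had 4.73% of all genes.

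**Figure D1:**
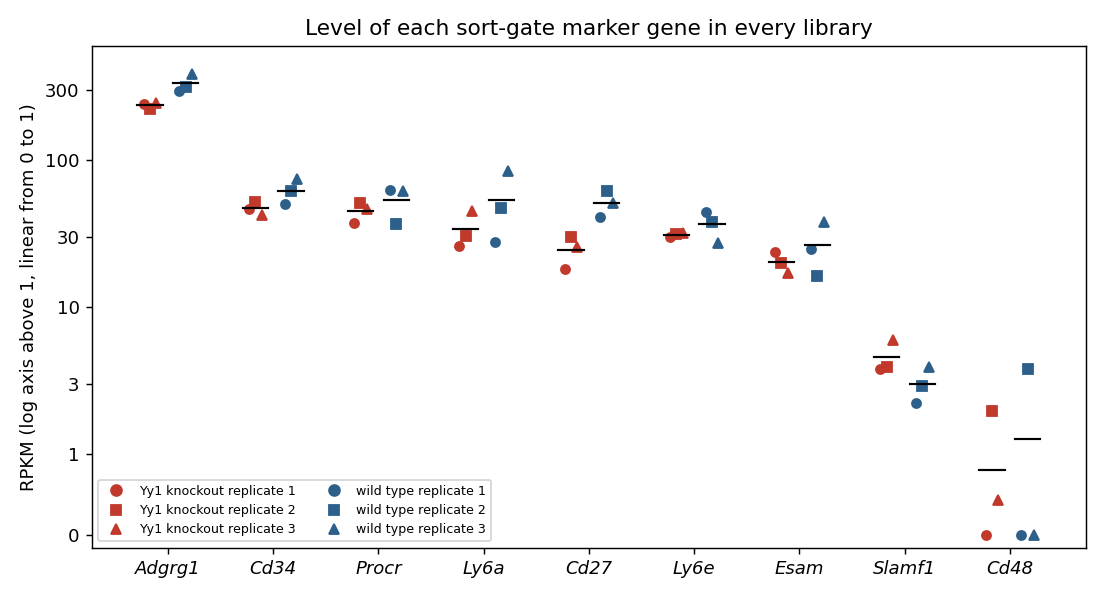
RPKM of the 9 marker genes in each library (y axis, logarithmic above 1 and linear from 0 to 1), with knockout libraries in red left of wild-type libraries in blue and a black line at each mean of 3. Adgrg1 stood highest in both groups and Cd48 lowest, and the groups were apart for Adgrg1 and Cd27.

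RPKM is scaled by gene length, so levels can be ordered between genes. The order is approximate, since the length spans all annotated exons of a gene and its expressed transcripts may be shorter. In knockout, Adgrg1 averaged 237 RPKM, Cd34 47.0, Procr 45.0, Ly6a 33.8, Ly6e 31.0, Cd27 24.5, Esam 20.2, Slamf1 4.54 and Cd48 0.800 RPKM. In wild type, Adgrg1 averaged 333 RPKM, Cd34 61.9, Procr 53.7, Ly6a 53.4, Cd27 51.2, Ly6e 36.5, Esam 26.4, Slamf1 2.999 and Cd48 1.25 RPKM. The range of Adgrg1 lay clear of the next gene in both groups, and Slamf1 lay clear below Esam in both. Slamf1 and Cd48 were apart in knockout and overlapped in wild type. From Cd34 down to Esam, each gene's range overlapped that of its neighbour in the order. Compared within each library, Procr still lay above Ly6a, and Ly6e above Cd27, in every knockout library. Genes farther apart in the order could have separate ranges. Cd34 lay above Ly6e in every library of its group, both in knockout and in wild type, and Cd27 lay above Esam in every wild-type library. Slamf1, whose protein is the positive selection marker of the gate, was among the weakly expressed genes, at the 27.9th percentile of the tested genes in knockout and at the 16.997th in wild type.

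Adgrg1 (ENSMUSG00000031785, chromosome 8: 94974751 to 95014217, GRCm38) encodes GPR56, an adhesion G protein-coupled receptor that is a widely used stem cell marker. It stood at 242, 223 and 245 RPKM in knockout libraries 1 to 3, against 297, 314 and 388 RPKM in wild-type libraries 1 to 3. The knockout values lay close together and the highest of them was below the lowest wild-type value. Adgrg1 averaged 237 ± 11.96 RPKM in knockout and 333 ± 48.4 RPKM in wild type (SD, n = 3 each), so the knockout mean was 71.0% of the wild-type mean. The log2 fold change came to -0.48 (SE 0.17), with a 95% interval of -0.88 to -0.09, and limma gave an adjusted p of 0.581. Without wild type replicate 3 the log2 fold change was -0.37, and without knockout replicate 1 it was -0.50. In the authors' deposited table the log2 fold change of Adgrg1 was -0.49, with a p-value of 0.000317 and an adjusted p of 0.107.

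Cd27 (ENSMUSG00000030336, chromosome 6: 125232622 to 125237010) encodes a receptor of the tumor necrosis factor receptor family, bound by CD70, that is found on multipotent progenitors as well as on lymphocytes. It stood at 18.0, 30.1 and 25.4 RPKM in knockout, against 41.3, 61.6 and 50.8 RPKM in wild type. Its groups did not overlap, and knockout replicate 1 was the lowest of all 6 libraries. Cd27 averaged 24.5 ± 6.07 RPKM in knockout and 51.2 ± 10.1 RPKM in wild type (SD, n = 3 each), so the knockout mean was 47.8% of the wild-type mean, the lowest such ratio of the 8 tested marker genes. The log2 fold change came to -1.06 (SE 0.25), with a 95% interval of -1.65 to -0.47. By unadjusted limma p Cd27 ranked 99 among the 13179 genes tested, and its adjusted p in limma was 0.429. Without knockout replicate 1 the log2 fold change was -0.86, and without wild type replicate 3 it was -1.06. In the authors' deposited table it was -1.09, with an adjusted p of 0.146.

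The whole of Cd27, 4389 bases, lies inside Vamp1, a synaptobrevin gene on the opposite strand. The sources used here do not say whether reads were counted by strand, so reads of both genes in shared exons cannot be told apart. Vamp1 stood at 6.38, 4.87 and 6.35 RPKM in knockout, against 5.03, 3.91 and 2.35 RPKM in wild type. The Vamp1 groups overlapped, and each Vamp1 value was below the Cd27 value of its library. The part of Vamp1 reads in the Cd27 values was not tested.

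The sequences before the start sites of Cd27 and Adgrg1 are shown because these were the marker genes whose groups did not overlap, read from RefSeq promoter windows (GRCm38.p6). Each shows 250 bases upstream of an annotated start, 5′ to 3′ on the gene's strand, with capitals for any match on either strand to GCCAT, the core of the YY1 motif, to AGATAA of GATA factors, to TGTGGT of RUNX factors or to CCGGAA of ETS factors. The Cd27 window is chr6:125237028-125237277 on the minus strand, within the span of Vamp1 and in no annotated exon, and the Adgrg1 window is chr8:94984149-94984398 on the plus strand, inside Adgrg1 ahead of one of its start sites, with 28 of its bases in an annotated exon.
Cd27: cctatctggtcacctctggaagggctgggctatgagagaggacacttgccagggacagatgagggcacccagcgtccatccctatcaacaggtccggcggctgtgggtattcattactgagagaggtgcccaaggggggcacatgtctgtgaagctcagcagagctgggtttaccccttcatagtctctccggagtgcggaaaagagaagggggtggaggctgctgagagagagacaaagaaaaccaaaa
Adgrg1: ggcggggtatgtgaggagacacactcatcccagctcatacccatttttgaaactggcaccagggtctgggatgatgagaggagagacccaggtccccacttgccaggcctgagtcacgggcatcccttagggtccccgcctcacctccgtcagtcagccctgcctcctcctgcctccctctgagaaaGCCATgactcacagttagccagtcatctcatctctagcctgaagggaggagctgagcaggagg

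The Adgrg1 window held GCCAT once, its first base 63 bases before the start, and a second Adgrg1 window (chr8:94976859-94977108) held it once on the other strand. The Cd27 window held none of the 4 motifs, and neither did the windows of Slamf1, Cd34 and Procr, while that of Cd48 held TGTGGT. Of all 32851 promoter windows of this length, 32.9% held GCCAT on either strand, 9.99% AGATAA, 14.0% TGTGGT and 12.03% CCGGAA. The matched letters are a description of these windows and show no binding. RefSeq windows were matched for 6 of the 9 genes, and Ly6a, Ly6e and Esam had no entry.

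**Figure D2:**
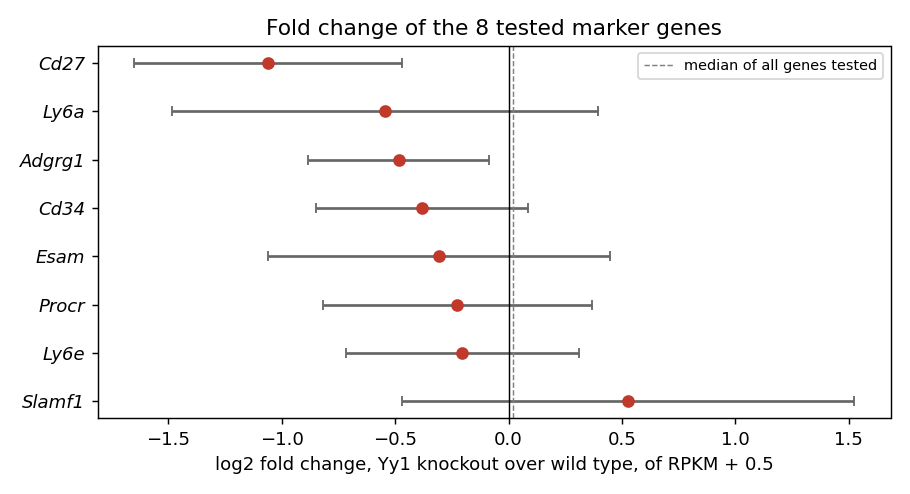
Log2 fold change of RPKM + 0.5, knockout over wild type (x axis), of the 8 tested marker genes with 95% intervals from limma over 3 libraries a group; the dashed line is the median of all genes tested. The intervals of Cd27 and Adgrg1 lay below 0, and the other 6 spanned 0.

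Slamf1 (ENSMUSG00000015316, chromosome 1: 171767127 to 171801184) encodes CD150, the SLAM receptor by which the gate was named. It stood at 3.77, 3.89 and 5.96 RPKM in knockout, from 404, 419 and 717 recovered reads, against 2.21, 2.88 and 3.90 RPKM in wild type, from 176, 286 and 355 reads. The groups overlapped only because wild type replicate 3 stood just above knockout replicates 1 and 2. Slamf1 averaged 4.54 ± 1.23 RPKM in knockout and 2.999 ± 0.849 RPKM in wild type (SD, n = 3 each). The log2 fold change came to 0.53 (SE 0.43), with a 95% interval of -0.47 to 1.52 and an adjusted limma p of 0.805. It was 0.71 with wild type replicate 3 left out and 0.34 with knockout replicate 3 left out. Its knockout-over-wild-type direction was opposite to that of the other 7 tested genes.

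Cd48 (ENSMUSG00000015355, chromosome 1: 171682009 to 171705258) encodes a glycolipid-anchored SLAM protein, the ligand of CD244, against which the cells were gated. It was listed at 0 in knockout replicate 1 and stood at 1.97 and 0.431 RPKM in knockout replicates 2 and 3, from 41 and 10 reads. In wild type it was listed at 0 in replicates 1 and 3 and stood at 3.76 RPKM in replicate 2, from 72 reads. A count of 0 allows up to 3 reads, which for Cd48 is 0.145 RPKM in knockout replicate 1 and 0.195 and 0.171 RPKM in wild type replicates 1 and 3, for counting error only. Cd48 was detected in 2 knockout libraries and in 1 wild-type library. It did not pass the filter and was tested in limma only with no filter, where its log2 fold change was 0.04 (SE 0.996) and its adjusted p 0.998. Its mean RPKM was lower in knockout, and the authors' deposited table gives Cd48 a log2 fold change of 0.82 with an adjusted p of 0.969. A predicted gene, Gm37010, overlaps Cd48 on the same strand over 1704 bases, and reads of both cannot be told apart there.

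In each group the library with most Cd48 was also the one with the highest summed level of granulocyte and monocyte markers. The summed level of 9 granulocyte and monocyte marker genes, of 12 in the list, was 35.9, 269 and 51.8 RPKM in knockout libraries 1 to 3, against 63.7, 149 and 19.8 RPKM in wild-type libraries 1 to 3. Camp, which encodes an antimicrobial peptide of neutrophil granules, stood at 0.0758, 50.5 and 2.16 RPKM in knockout and at 0.102, 16.7 and 0.178 RPKM in wild type. S100a9, a calcium-binding protein gene of granulocytes, stood at 12.1, 149 and 28.2 RPKM in knockout and at 36.3, 86.4 and 3.63 RPKM in wild type. Elane, the neutrophil elastase gene, named after its values were seen, was listed at 0 in every library but knockout replicate 2, at 3.23 RPKM, and wild type replicate 2, at 2.77 RPKM. In all, 8 of the 9 were highest in knockout replicate 2 among the knockout libraries and 8 of the 9 in wild type replicate 2 among the wild-type ones. The exceptions were Cd68, a macrophage antigen gene, at 2.06, 5.82 and 9.49 RPKM in knockout libraries 1 to 3, and Itgam, at 5.09, 2.31 and 2.15 RPKM in wild-type libraries 1 to 3. S100a8, whose product pairs with that of S100a9, averaged 15.1 ± 14.1 RPKM in knockout and 7.13 ± 5.87 RPKM in wild type, and Prtn3, the proteinase gene of neutrophil granules, averaged 7.94 ± 3.17 RPKM in knockout and 12.7 ± 2.51 RPKM in wild type (SD, n = 3 each). The part of these cells in the Cd48 values was not tested.

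**Figure D3:**
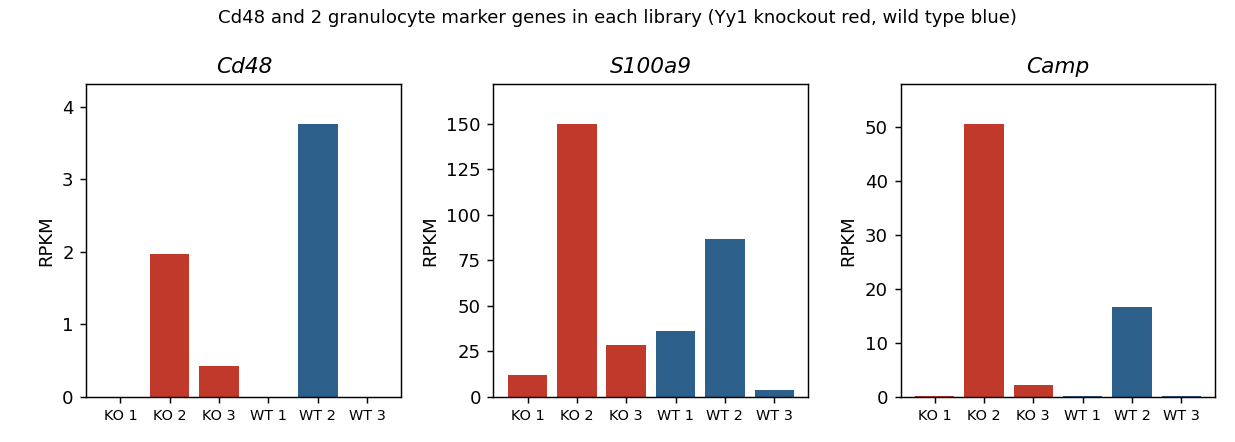
RPKM of Cd48, S100a9 and Camp (y axes, linear from 0) in each knockout library (red) and wild-type library (blue). All 3 genes were highest in replicate 2 of each group.

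Slamf1 and Cd48 lie in the SLAM receptor cluster of chromosome 1, with 61868 bases between them. SLAM receptors bind each other across cells and signal through small adapters. Of 12 genes of the family and its adapters, Slamf1 and Cd48 included, 6 were in the table and 4 were tested, of which 0 had an adjusted limma p under 0.05, 2 lay above 0 and 2 below, at a median of -0.04 log2. Cd84, the most abundant of them, averaged 15.2 ± 2.62 RPKM in knockout and 21.4 ± 7.22 RPKM in wild type, and Ly9 averaged 4.10 RPKM in knockout and 4.93 RPKM in wild type (n = 3 each).

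To set CD150 against markers of less primitive cells within each library, log2 ratios of RPKM + 0.5 were formed. The Slamf1 to Flt3 ratio, Flt3 being the cytokine receptor gene of multipotent progenitors, was -2.42, -1.91 and -1.54 in knockout, against -3.18, -2.90 and -2.79 in wild type. Every knockout library had a higher ratio than every wild-type library, with a mean difference, knockout minus wild type, of 0.9997. The two-sided exact permutation p was 0.1, the smallest that 3 against 3 allows, and 0.4 when adjusted over the 4 ratios tested. Leaving out single libraries moved the difference between 0.79 and 1.23. The Slamf1 to Cd48 ratio, which rests on the Cd48 zeros, differed by 0.49 on average, knockout minus wild type, with overlapping libraries (exact permutation p = 0.7). It was 0.08 with a pseudocount of 0.1, 0.06 with knockout replicate 1 left out, 1.19 with wild type replicate 3 left out and -0.55 with wild type replicate 2 left out.

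Ly6a (ENSMUSG00000075602, chromosome 15: 74994877 to 74998031) encodes Sca-1, the glycolipid-anchored antigen of the gate. It stood at 26.1, 30.7 and 44.7 RPKM in knockout, against 27.9, 47.5 and 84.7 RPKM in wild type. The wild-type libraries differed by 3.03 times between the lowest and the highest, the widest range of the tested marker genes, and the knockout values lay within or just below it. Ly6a averaged 33.8 ± 9.71 RPKM in knockout and 53.4 ± 28.9 RPKM in wild type (SD, n = 3 each). Its log2 fold change was -0.54 (SE 0.40), with an adjusted limma p of 0.786. It was -0.14 without wild type replicate 3, -0.93 without wild type replicate 1 and -0.38 with knockout replicate 1 left out.

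Ly6e (ENSMUSG00000022587, chromosome 15: 74955051 to 74959905) encodes a related glycolipid-anchored protein and lies 34971 bases from Ly6a. It stood at 29.98, 31.4 and 31.7 RPKM in knockout, against 44.5, 37.8 and 27.3 RPKM in wild type. The 3 knockout values were within 1.06 times of each other and inside the wild-type range. The log2 fold change came to -0.20 (SE 0.22), with an adjusted limma p of 0.856, and it was -0.40 without wild type replicate 3. Within wild type the 2 genes ran in opposite order, Ly6a highest and Ly6e lowest in replicate 3. The log2 ratio of Ly6a to Ly6e was -0.20, -0.03 and 0.49 in knockout, against -0.66, 0.33 and 1.61 in wild type (exact permutation p = 0.8), and the mean difference, knockout minus wild type, was -0.34 with all libraries, -0.20 with knockout replicate 1 left out and 0.25 without wild type replicate 3. Of 12 Ly6 family genes, 3 were in the table and 2, these 2, were tested, with 0 called in limma and a median log2 fold change of -0.37.

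Ly6a and Ly6e are among the genes induced by interferon in mouse cells, and Mx1-Cre responds to interferon too. Of 25 interferon-stimulated genes tested, 0 had an adjusted limma p under 0.05, 19 lay above 0 and 6 below, and the median log2 fold change was 0.38. Their summed level was 379, 392.2 and 448 RPKM in knockout libraries 1 to 3, against 339, 327 and 359 RPKM in wild-type libraries 1 to 3. Irf7, a transcription factor gene of the interferon response, averaged 15.1 ± 2.73 RPKM in knockout and 5.76 ± 3.03 RPKM in wild type, and Ifit1, an antiviral RNA-binding protein gene, averaged 13.4 ± 1.25 RPKM in knockout and 5.30 ± 1.503 RPKM in wild type (SD, n = 3 each). The groups did not overlap for these 2 genes, and their adjusted limma p-values were 0.557 and 0.429. In all, 6 of the 25 lay higher in knockout without overlap, beside 7.63% of all genes tested. Another 2, Psmb8 among them, lay lower without overlap, beside 6.87% of all genes tested. The most abundant of the list were Bst2, at 61.9 RPKM in knockout and 40.6 RPKM in wild type, Psmb8, at 48.1 RPKM in knockout and 54.7 RPKM in wild type, and Rtp4, at 31.4 RPKM in knockout and 21.5 RPKM in wild type. The fold changes of Ly6a and Ly6e lay below 0 and most of this list above it; the part of an interferon response in their values was not tested.

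Cd34 (ENSMUSG00000016494, chromosome 1: 194938819 to 194961279) encodes a sialomucin that in adult mice is low on the most primitive stem cells and higher on their progeny. It stood at 46.4, 52.1 and 42.4 RPKM in knockout, against 49.9, 61.6 and 74.3 RPKM in wild type. Only knockout replicate 2 and wild type replicate 1 crossed. Cd34 averaged 47.0 ± 4.90 RPKM in knockout and 61.9 ± 12.2 RPKM in wild type (SD, n = 3 each), with a log2 fold change of -0.38 (SE 0.20) and an adjusted limma p of 0.709. Without wild type replicate 3 the log2 fold change was -0.24. A gene on the opposite strand, Gm16897, overlaps Cd34 over 5521 bases. In the authors' deposited table Cd34 had a p-value of 0.0239 and an adjusted p of 0.586, and with Cd27 and Adgrg1 it was 1 of 3 marker genes of 9 at an unadjusted p under 0.05 there, all lower in knockout. Of all listed genes 3.41% had such a p in that direction there and 8.02% in either direction.

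Procr (ENSMUSG00000027611, chromosome 2: 155751117 to 155755471) encodes the endothelial protein C receptor, which also marks primitive stem cells. It stood at 37.2, 51.0 and 46.7 RPKM in knockout, against 62.9, 36.9 and 61.3 RPKM in wild type. Both the highest and the lowest values were wild-type ones, so the knockout libraries lay inside the wild-type range. Procr had a log2 fold change of -0.23 (SE 0.25) and an adjusted limma p of 0.860, and leaving out single libraries gave -0.47 to -0.09. The log2 ratio of Procr to Cd34 differed by 0.16, knockout minus wild type (exact permutation p = 0.7), and by -0.10 without wild type replicate 2.

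Esam (ENSMUSG00000001946, chromosome 9: 37528078 to 37538319) encodes a cell adhesion molecule of endothelial junctions that stem cells carry as well. It stood at 23.9, 19.9 and 16.998 RPKM in knockout, against 24.8, 16.3 and 38.0 RPKM in wild type. Wild type replicate 3 alone lay above the rest. The log2 fold change came to -0.31 (SE 0.32), with an adjusted limma p of 0.853. It was -0.01 without wild type replicate 3 and -0.60 without wild type replicate 2.

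Procr, Esam and Cd34 are also expressed by endothelial cells. Of 12 endothelial marker genes, 7 were in the table, and their summed level was 40.2, 45.4 and 45.5 RPKM in knockout libraries 1 to 3, against 59.9, 44.4 and 44.8 RPKM in wild-type libraries 1 to 3. Most of that sum came from Tie1, at 21.9 RPKM in knockout and 24.8 RPKM in wild type, Pecam1, at 10.3 RPKM in knockout and 11.7 RPKM in wild type, and Egfl7, at 7.35 RPKM in knockout and 7.30 RPKM in wild type, which blood stem cells also express. Emcn, the endomucin gene, averaged 3.47 ± 1.37 RPKM in knockout and 5.15 ± 2.19 RPKM in wild type (SD, n = 3 each). Of the 4 tested, 0 were called in limma, with a median log2 fold change of -0.13. The defining markers Kdr and Stab2 did not pass the filter. Stab2 was listed at 0 in knockout replicates 1 and 3 and in wild type replicates 1 and 3. It stood at 0.496 RPKM in knockout replicate 2 and at 0.610 RPKM in wild type replicate 2. Kdr stood at 0.401, 0.848 and 0 RPKM in knockout and at 0.00857, 0.440 and 0.682 RPKM in wild type. Cdh5, Plvap and Cldn5 were not among the listed genes, and the part of endothelial cells in these results was not tested.

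**Figure D4:**
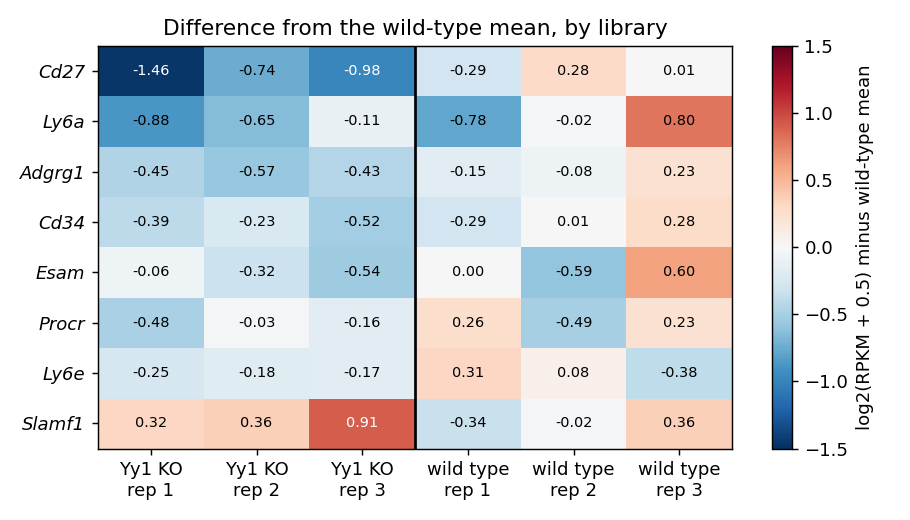
Log2(RPKM + 0.5) of the 8 tested marker genes in each library minus the wild-type mean of that gene (colour and printed value), knockout libraries left of wild-type ones. In each knockout library 7 of 8 genes lay below 0, and in wild type replicate 3 only Ly6e did.

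Seen by library, 7 of the 8 tested marker genes lay below their wild-type mean in knockout replicate 1, 7 in replicate 2 and 7 in replicate 3, against 6, 5 and 1 in wild type replicates 1 to 3. The median of the 8 differences was -0.42, -0.27 and -0.30 log2 in knockout, against -0.22, -0.02 and 0.25 log2 in wild type. The knockout medians were lower than every wild-type median, and the wild-type medians spread over a wider range. Wild type replicate 3 was the highest wild-type library for 5 of the 8 genes; without it the median log2 fold change was -0.19 in place of -0.34, and 7 of 8 genes still lay below 0. Without knockout replicate 1 the median was -0.38, with 7 of 8 below 0, and the log2 fold change was 0.63 for Slamf1, -0.18 for Ly6e, -0.38 for Cd34, -0.10 for Procr and -0.43 for Esam. The log2 SD between libraries was smaller in knockout than in wild type for 7 of the 8, all but Cd27, as was so for 61.5% of all genes tested, and its median was 0.24 in knockout and 0.35 in wild type.

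Other surface markers used on stem and progenitor cells were examined beside the gate markers as a list of 29 genes. In all, 27 were in the table and 24 were tested, 0 had an adjusted limma p under 0.05, 17 lay below 0 and the median log2 fold change was -0.36, beside 0.02 over all genes tested. Without wild type replicate 3 the median was -0.25, with 17 below 0. In 7 of the 24 every knockout library lay below every wild-type library, beside 6.87% of all genes tested, and in 1, Itga2b, every one lay above, beside 7.63%.

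Kit, whose product c-Kit is the remaining positive antigen of the gate, stood at 82.6, 76.6 and 77.3 RPKM in knockout, against 140, 112 and 126 RPKM in wild type, a log2 fold change of -0.67 with an adjusted limma p of 0.429. No Kit value crossed. In the authors' deposited table the log2 fold change of Kit was -0.66 (adjusted p 0.0118). Kit was thus among the 24 genes (0.154%) at an adjusted p under 0.05 there. Of the 9 marker genes of this report, which do not include Kit, 0 were. Flt3 stood at 22.4, 16.0 and 18.3 RPKM in knockout, against 24.1, 24.8 and 30.003 RPKM in wild type, with an adjusted limma p of 0.664. Cd24a, a mucin-like antigen and the most abundant of the list, averaged 216 ± 31.0 RPKM in knockout and 232 ± 38.9 RPKM in wild type (SD, n = 3 each), with overlap.

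Besides Kit, Flt3 and Cd63, the other genes with non-overlapping lower values, named after their values were seen, were Cxcr4, Eng, Cd44 and Cd37. Cd63, a tetraspanin gene, averaged 41.0 ± 13.1 RPKM in knockout and 95.4 ± 36.7 RPKM in wild type, and Cxcr4, the chemokine receptor gene that holds stem cells in the marrow, averaged 13.8 RPKM in knockout and 23.9 RPKM in wild type (n = 3 each). Itga2b, the gene of CD41 and higher in all knockout libraries, averaged 23.4 ± 5.59 RPKM in knockout and 14.1 ± 4.47 RPKM in wild type (SD, n = 3 each), with an adjusted limma p of 0.628.

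**Figure D5:**
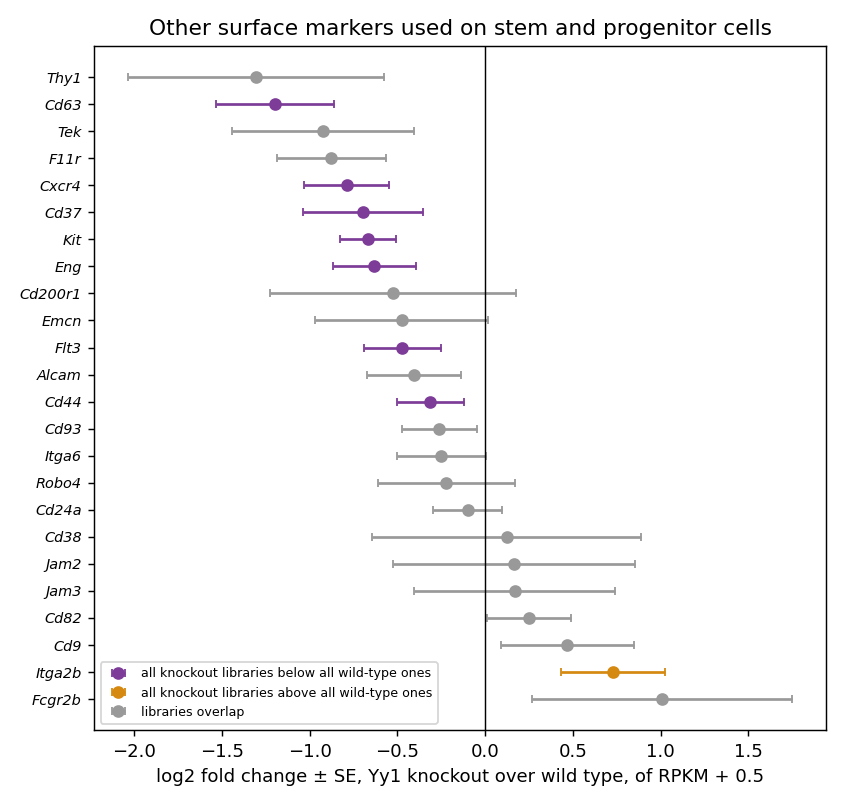
Log2 fold change of RPKM + 0.5 with its standard error, knockout over wild type (x axis), of the 24 tested genes of the surface marker list; purple and orange mark genes whose knockout libraries all lay below or all above the wild-type libraries. Of the 24, 17 lay below 0 and 7 were purple.

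Genes of ligands, partners and signalling proteins of the gate markers were also listed. Of 17 genes in that list 12 were tested, 0 had an adjusted limma p under 0.05, 10 lay above 0 and 2 below, and the median log2 fold change was 0.44. Siva1, which encodes a protein that binds the tail of CD27, averaged 60.5 ± 22.1 RPKM in knockout and 37.2 ± 6.70 RPKM in wild type, without overlap and with an adjusted limma p of 0.633. F2r, the thrombin receptor gene through which the protein C receptor signals in endothelium, averaged 31.9 ± 5.55 RPKM in knockout and 21.9 ± 8.01 RPKM in wild type. Tgm2, the transglutaminase gene whose product binds GPR56, averaged 23.3 ± 4.83 RPKM in knockout and 29.1 ± 5.27 RPKM in wild type (SD, n = 3 each).

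Of a list of 17 genes of lineage antigens, drawn up for this report, 5 were in the table and 2 were tested. These were Ptprc, the CD45 gene, one of whose isoforms marks B cells, at 24.6 RPKM in knockout and 30.6 RPKM in wild type, and Itgam, the CD11b gene, at 1.97 RPKM in knockout and 3.18 RPKM in wild type, and limma called 0 of them, at a median of -0.58 log2. Among 11 megakaryocyte markers 9 were in the table and 8 were tested, of which 8 lay above 0 and limma called 0, at a median of 0.99 log2. The summed level of the 9 was 181.1, 89.98 and 108 RPKM in knockout, against 66.3, 59.5 and 88.3 RPKM in wild type. These sums did not overlap, but knockout replicate 2 stood just above wild type replicate 3, where Cd9 alone gave 57.8 RPKM. In 3 of the 8 tested every knockout library lay above every wild-type library, beside 7.63% of all genes tested. Pf4, a platelet chemokine gene, stood at 49.01, 14.5 and 17.04 RPKM in knockout, against 6.98, 11.1 and 3.75 RPKM in wild type, with an adjusted limma p of 0.559. Cd9, a tetraspanin gene, averaged 48.4 ± 13.5 RPKM in knockout and 36.9 ± 18.8 RPKM in wild type (SD, n = 3 each). Gp9, a platelet glycoprotein gene, averaged 7.45 ± 1.29 RPKM in knockout and 2.07 ± 0.5998 RPKM in wild type (SD, n = 3 each), without overlap. Among 10 erythroid markers 5 were tested, 4 lay above 0 and limma called 0, at a median of 1.14 log2. Their summed level was 194, 179 and 208 RPKM in knockout, against 193, 193 and 221 RPKM in wild type, mostly from Car2, a carbonic anhydrase gene, at 138 RPKM in knockout and 184 RPKM in wild type. Car1, a related enzyme gene, averaged 8.54 ± 4.48 RPKM in knockout and 4.37 ± 3.16 RPKM in wild type (SD, n = 3 each). Hbb-bs, a beta-globin gene, stood at 28.8, 15.6 and 78.8 RPKM in knockout, against 3.50, 14.4 and 15.05 RPKM in wild type. Of the granulocyte and monocyte markers 8 were tested, with 5 above 0 and 0 called in limma, at a median of 0.82 log2. The part of such cells in the marker gene values was not tested.

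Among 9246 tested genes of at least 5 RPKM on average, the 3 whose profile over the 6 libraries was nearest to that of Slamf1 were Chchd2, Hist1h2bg and Npm1, with root-mean-square differences of 0.06, 0.07 and 0.08 between centred log2(RPKM + 0.5) profiles. Hist1h2bg, a histone gene, belongs to a multigene family whose members can share reads. Npm1, the nucleophosmin gene, stood at 274, 275 and 364 RPKM in knockout, against 175, 195 and 262 RPKM in wild type, so replicate 3 was the highest of each group, as for Slamf1. The nearest to Cd48 were Hspa1b, Hspa1a and Tmem126a, at larger differences of 0.47, 0.53 and 0.54. Hspa1b, a heat shock chaperone gene that can share reads with its near-identical copy Hspa1a, stood at 82.2, 291 and 228 RPKM in knockout, against 81.7, 364 and 73.1 RPKM in wild type, highest in replicate 2 of each group.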

How the data were processed

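Subread, featureCounts, edgeR, limma and mm10 are named in the submitters' processing notes, with no order, version or setting. That the 6 library columns hold RPKM made by the authors was found from the values, since the deposited values times GENCODE M21 exonic length gave whole reads (within 0.02 reads in all 6 libraries) for 71.8% of 15465 genes with a length. Of the 9 marker genes 8 came out whole, and Adgrg1 reads are estimates. The authors' own comparison was deposited as a log2 fold change and as p-values and adjusted p-values, per the file headers.

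Groups were compared by limma (3.58.1, R 4.3.3) with a variance trend, after adding a pseudocount of 0.5 to RPKM and taking log2, for the 13179 genes that reached 1 RPKM in 3 libraries or more. The pseudocount makes fold changes of low genes too small. Benjamini-Hochberg adjustment ran over all tested genes. The fit was tested on simulated data. A limma-voom fit of recovered reads was an alternative, and further ones varied the pseudocount, filter, scaling, variance trend, replicate block and libraries.

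The marker genes and gene lists were chosen with earlier results of these data known. A gene of the surface and megakaryocyte lists is not reported here and was left out of both. Genes named were all marker genes, Yy1, Kit and Flt3, of each list any called gene, the 3 most abundant and the 2 with the smallest p, and the 3 nearest profiles to Slamf1 and Cd48. Defining endothelial markers and overlapping genes are named besides; others are said to be chosen after their values were seen. The library kit, NuGen Ovation RNA-Seq System V2, amplifies RNA, so reads are not independent molecules, and intervals cover counting error only where they come from counts.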

Additional observations from a re-analysis of the deposited data

How the results depend on the processing

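Each tested marker gene kept the sign of its log2 fold change and stayed above the adjusted threshold of 0.05 in every limma and limma-voom setting in which it was tested; Cd48 was tested only with no filter, where its log2 fold change was 0.04 (adjusted p 0.998), and Slamf1 did not pass the filter at 5 RPKM. The count of genes called over the whole table, 0 in limma, was 8 in limma-voom on recovered reads and 0 to 1 when single libraries were left out (1 without wild type replicate 1 and 1 without wild type replicate 2). The median log2 fold change of the marker genes ranged from -0.50 to -0.19 without single libraries. The number of marker genes lower with no overlap, 2 of 8, was 2 to 4 without single libraries (4 without wild type replicate 1 and 4 without wild type replicate 2), a count added after the data were seen, while a smaller group makes gaps more common: the share over all genes was then 10.5% to 13.6%. Differences in the log2 ratios ranged over these omissions from -0.55 to 1.197 for Slamf1 to Cd48, from -0.10 to 0.43 for Procr to Cd34, from -0.89 to 0.25 for Ly6a to Ly6e and from 0.79 to 1.23 for Slamf1 to Flt3. Slamf1 to Cd48 turned to -0.55 and Procr to Cd34 to -0.10 without wild type replicate 2, and Ly6a to Ly6e to 0.25 without wild type replicate 3. With a pseudocount of 0.1 the Slamf1 to Cd48 difference was 0.08.

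Deviations of same-numbered libraries from their group means correlated at 0.02, 0.06 and 0.05 across genes, which are not independent. The labels give these libraries only a shared number, and such correlations cannot settle whether they were paired. As a hint from the data, 5 of 6 libraries correlated best with the same-numbered library of the other group; wild type replicate 1 correlated best with knockout replicate 2. A replicate block called 0 genes, gave Cd27 an adjusted limma p of 0.522 and Adgrg1 0.569, and left the marker median at -0.34. With the block the SE of Ly6a was 0.22 in place of 0.40 (limma p 0.052 unadjusted, 0.624 adjusted). The SE of Slamf1 was 0.43 with and without the block. With 3 libraries a group, differences of the size seen for Slamf1 and Ly6a could not be told from the spread.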
